A study of Bos grunniens and Bos grunniens x Bos taurus with 6 samples.

Results

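Glycolysis and glycogen metabolism were followed through 37 genes in longissimus dorsi, a long back muscle, of cattle-yak and yak. The members were chosen by name, with earlier results of these data known. They cover the enzymes from glucose entry to lactate (21 genes) and the making, breakdown and handling of glycogen (16 genes). For each name, the gene identifier with most reads in rows carrying that symbol was taken, and all its transcripts were summed. This found 35 of the 37 among the 31044 genes of the table. PGAM2, the muscle phosphoglycerate mutase, and PYGB, the brain form of glycogen phosphorylase, matched no symbol and were not analysed here. A gene was tested if it held 30 or more reads pooled over the 6 libraries, which 32 members did (18 of glycolysis, 14 of glycogen) of 10397 genes in all. HK1 (19 reads), ALDOC (14 reads) and PPP1R3D (8 reads) fell under that minimum.

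The samples were longissimus dorsi of cattle-yak, a cross between cattle and yak (3 libraries), and of yak (3 libraries), each sequenced as full-length cDNA on the nanopore platform. No treatment, genotype, age, sex or feeding is given in the sources used here for either group. Whether the 3 samples of a group are 3 animals is not stated, and the p-values below therefore cover the spread among these samples only, which may be technical. In bulk muscle, fewer cells of a type and less RNA per cell cannot be told apart. Whether reads of cattle alleles in cattle-yak were counted as fully as those of yak alleles was not tested.

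Glycolysis splits glucose into pyruvate through a chain of cytosolic enzymes, and working muscle turns part of the pyruvate into lactate. Muscle stores glucose as glycogen, a branched polymer built on glycogenin by glycogen synthase and cut by glycogen phosphorylase. Phosphorylase kinase switches phosphorylase on, and protein phosphatase 1, brought to glycogen by targeting subunits of the PPP1R3 family, reverses this and activates the synthase. STBD1 binds glycogen and anchors it to membranes.

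The libraries held 2382936, 2366057 and 2769106 counted reads in cattle-yak and 2350851, 2502603 and 2412511 in yak. Levels below are read counts scaled to a common library size (CPM), with TMM factors that correct each library for its composition. A read is counted once whatever its length, so CPM levels are compared within a gene and not between genes. No pair of libraries of a group agreed within sampling noise. Of the 10397 genes tested, 1040 passed (edgeR quasi-likelihood test, Benjamini-Hochberg adjusted p under 0.05), or 10%, of which 512 were higher in cattle-yak (4.92%) and 528 lower (5.08%). The muscle markers were abundant in every library, with a summed level of 158500 to 168600 CPM in cattle-yak and 212300 to 235300 CPM in yak over 10 genes. Of these 10, 2 were higher and 3 lower in cattle-yak. The count of 1040 became 659 without yak 1, 630 without yak 2 and 526 without yak 3.

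Of the 32 tested members, 2 rose, 7 fell and 23 did not pass. Among the 14 glycogen genes, 5 fell in cattle-yak (STBD1, PPP1R3C, PPP1R3A, PHKB and GYG1), none rose and 9 did not pass. That is 35.7% lower, against 5.08% of all genes tested. Because the members were chosen with earlier results of these data known, shares among them describe the list and are not a test of the pathway. Among the 18 glycolysis genes, 2 rose (HK2 and PFKFB4), 2 fell (ENO1 and PGK1) and 14 did not pass, or 11.1% in each direction. The log2 ratio below is the log2 fold change of cattle-yak over yak fitted by edgeR. Its median was -0.47 for glycogen genes and -0.26 for glycolysis genes, against 0.04 for all genes. The members were also measured more precisely than most genes, with a median SE of 0.21 on the log2 scale against 0.38 over all genes tested, so a change of a given size is called more readily among them. Scaling by library size alone put the median of all genes at 0.23 in place of 0.04. Under it, glycogen had 2 genes higher and 4 lower, while all genes had 763 higher and 310 lower. The 9 called members kept their direction in every alternative in which they were tested.

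**Figure D1:**
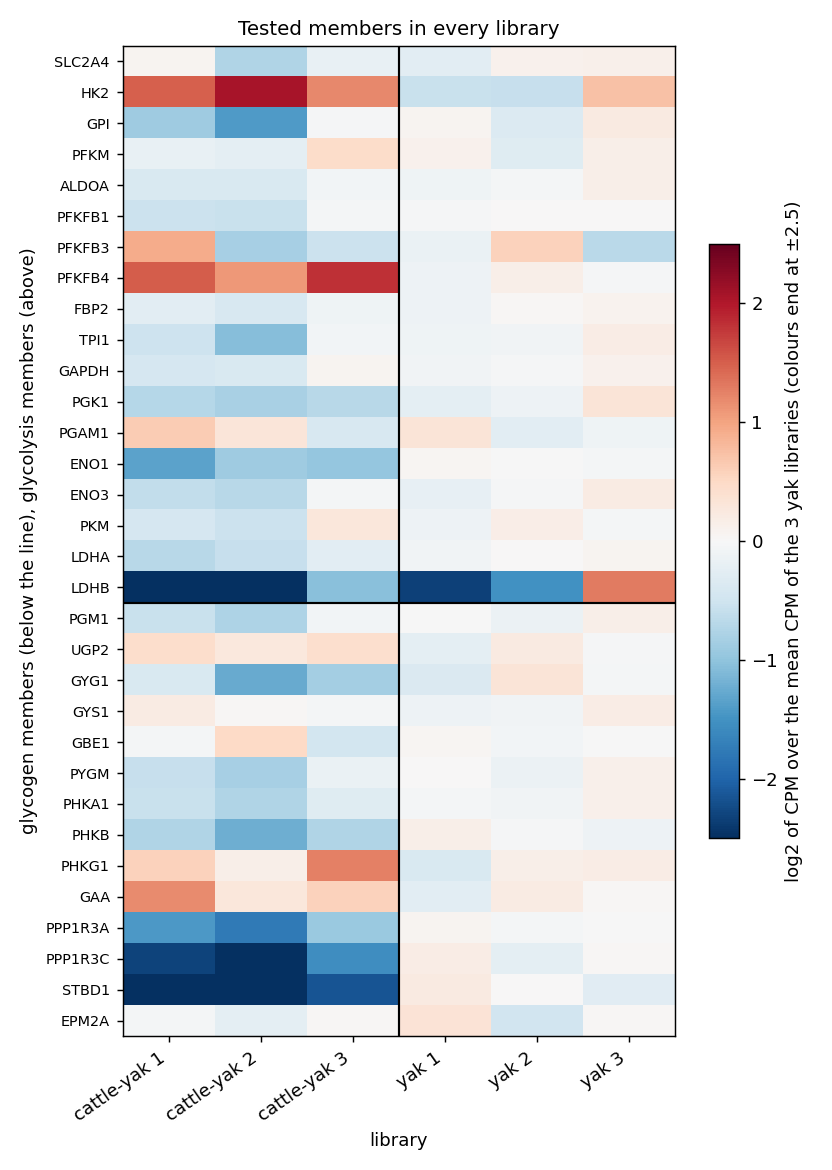
Each row is a tested member and each column a library, cattle-yak on the left and yak on the right. The colour gives the log2 ratio of the gene's CPM to the mean CPM of the 3 yak libraries. STBD1, PPP1R3C and PPP1R3A are blue in all 3 cattle-yak libraries, PFKFB4 and HK2 are red there, and cattle-yak 3 is the highest of the cattle-yak libraries in 13 of 18 glycolysis rows. Colours end at a log2 ratio of 2.5 in either direction, which LDHB, PPP1R3C and STBD1 exceed.

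**Figure D2:**
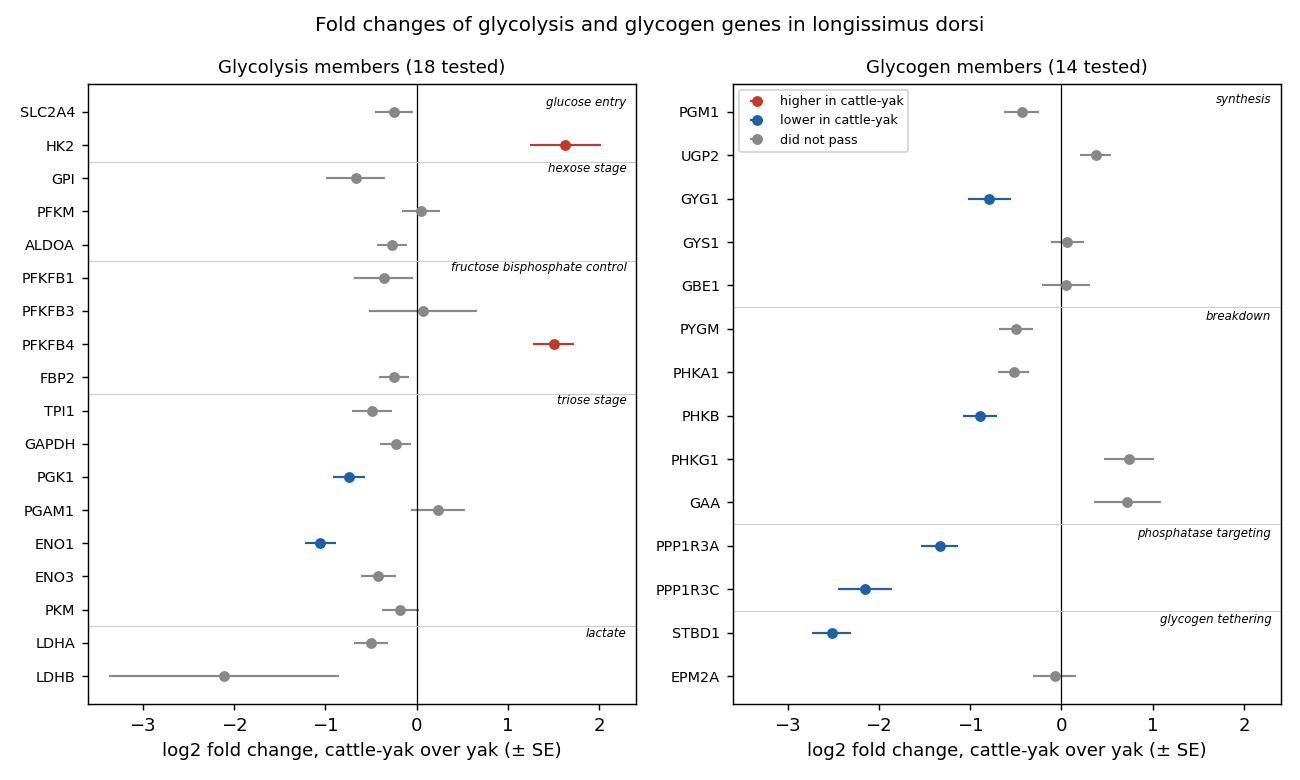
Points give the log2 ratio of cattle-yak over yak and bars its SE for the 18 glycolysis genes (left) and 14 glycogen genes (right), ordered by role. Red genes were higher in cattle-yak, blue ones lower and grey ones did not pass.

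STBD1, the starch-binding-domain protein that tethers glycogen to membranes, had the largest fall of the called members. It had 58.2, 48.5 and 80.2 CPM in cattle-yak 1, 2 and 3, against 418, 359 and 295 CPM in yak 1, 2 and 3. The groups lay far apart, and the highest cattle-yak library was far under the lowest yak library. The mean was 62.3 ± 16.2 CPM in cattle-yak and 357 ± 61.4 CPM in yak (SD, n = 3 each), a log2 ratio of -2.52 ± 0.21 (SE, edgeR adjusted p = 4.12e-06). Its p-value ranked 8 among the 10397 genes and 4 among those lower in cattle-yak. The symbol was carried by 100% of its reads, and 94.0% of them lay in the reference transcript ENSBGRT00000026605. That transcript had 132, 119 and 205 reads in cattle-yak and 885, 778 and 610 in yak, and fell by 2.53 ± 0.22 on the log2 scale (SE, edgeR adjusted p = 1.91e-06 over all transcripts). The 3 STBD1 transcripts tested all fell. EPM2A, the glycogen phosphatase laforin, which keeps glycogen soluble, stands in the same group by role. It had 31.3, 27.3 and 33.0 CPM in cattle-yak and 40.5, 23.2 and 32.8 CPM in yak, which overlapped (log2 ratio -0.07 ± 0.23, edgeR adjusted p = 0.881).

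The glycogen-targeting subunits of protein phosphatase 1 fell together. PPP1R3C, which brings the phosphatase to glycogen and to glycogen synthase, had 38.7, 25.8 and 66.0 CPM in cattle-yak and 220, 163 and 198 CPM in yak. All cattle-yak libraries lay below all yak libraries. Its log2 ratio was -2.15 ± 0.29 (SE, edgeR adjusted p = 0.00114), with group means of 43.5 ± 20.6 CPM in cattle-yak and 194 ± 28.8 CPM in yak (SD, n = 3 each). Nearly all of its reads (99.5%) lay in 1 reference transcript, which had 99, 67 and 182 reads in cattle-yak against 492, 371 and 431 in yak. PPP1R3A, the large subunit of striated muscle that also anchors to the sarcoplasmic reticulum, had 215, 171 and 308 CPM in cattle-yak and 608, 564 and 579 CPM in yak. Here too the groups did not overlap, and the yak libraries were within a narrow band. The mean was 232 ± 70.2 CPM in cattle-yak and 584 ± 22.4 CPM in yak (SD, n = 3 each), a log2 ratio of -1.33 ± 0.20 (SE, edgeR adjusted p = 0.000680). Of the 10 PPP1R3A transcripts tested, 5 fell and none rose. Its reference transcript ENSBGRT00000003480 had 331, 212 and 389 reads in cattle-yak and 806, 762 and 834 in yak (log2 ratio -1.58 ± 0.20, edgeR adjusted p = 7.78e-05). The assembled transcript TALONT000828954 had 114, 123 and 193 reads in cattle-yak and 276, 249 and 196 in yak, with a log2 ratio of -0.95 ± 0.23 (edgeR adjusted p = 0.00952), and no longer passed without yak 1 (0.0577). PPP1R3D, a further targeting subunit, had 0, 1 and 2 reads in cattle-yak and 0, 3 and 2 in yak, too few to compare.

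PPP1R3B, the family member best known from liver, belongs to a list of 45 other names of the pathway, of which 24 had enough reads to be tested. It had 7.03, 12.3 and 6.89 CPM in cattle-yak and 20.9, 25.4 and 17.8 CPM in yak, and fell with a log2 ratio of -1.29 ± 0.31 (SE, edgeR adjusted p = 0.0147). So each of the 3 targeting subunits with enough reads was lower in cattle-yak. PPP1R3B held 213 pooled reads, and its call was not checked in the alternatives. The catalytic subunits did not pass. PPP1CB, the catalytic form that pairs with several targeting subunits, had 87.5, 77.0 and 93.6 CPM in cattle-yak and 129, 113 and 126 CPM in yak (log2 ratio -0.51 ± 0.17, edgeR adjusted p = 0.0697), and PPP1CA and PPP1CC had log2 ratios of -0.16 and 0.09.

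**Figure D3:**
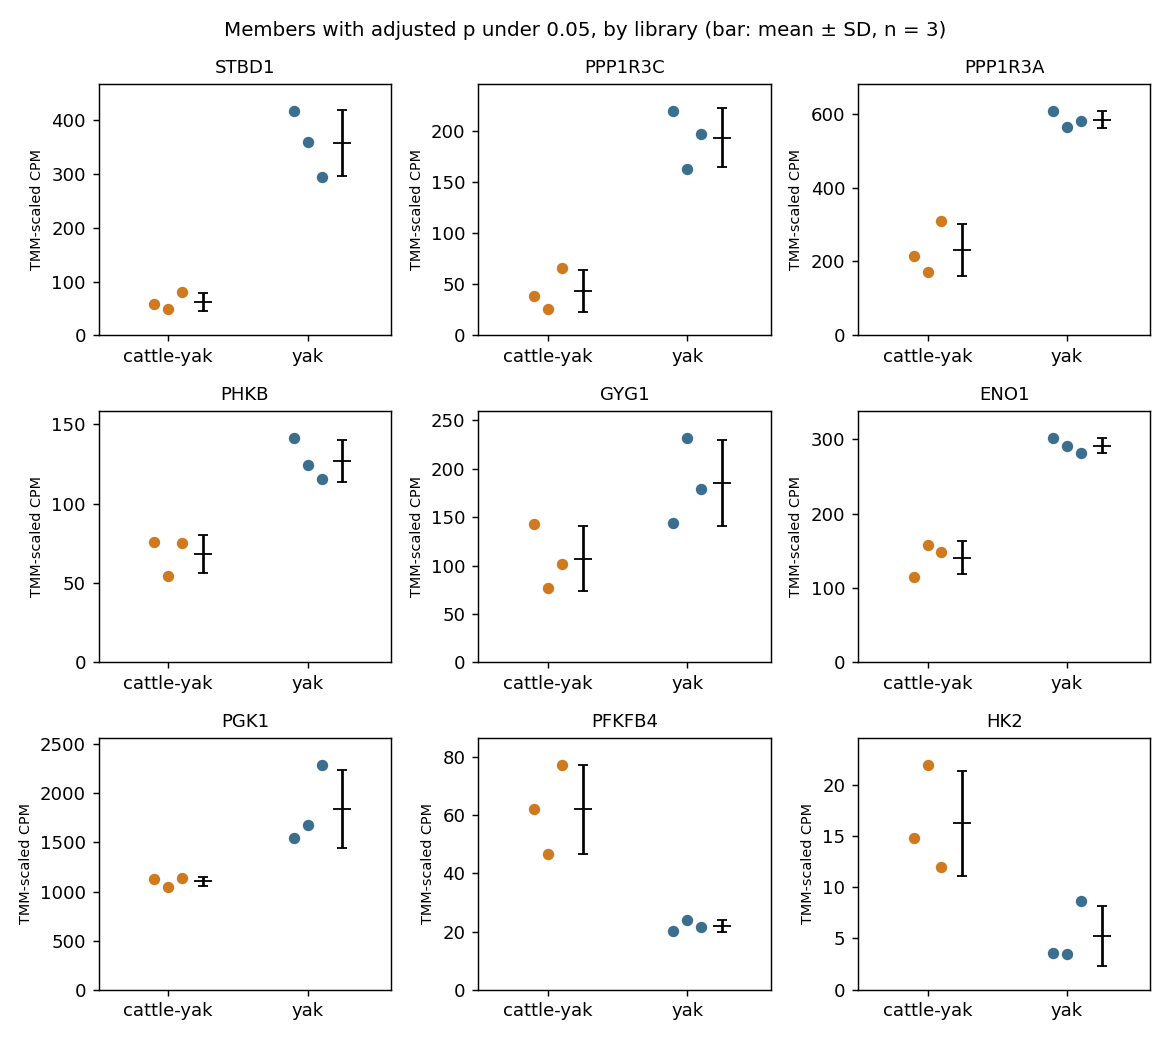
The 9 members with adjusted p under 0.05 are shown by library, cattle-yak left and yak right, as TMM-scaled CPM on axes from 0, with a bar for the mean ± SD of 3 libraries. The 2 groups do not overlap in any panel, but for GYG1 the highest cattle-yak library (143 CPM) nearly meets the lowest yak library (144 CPM).

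Glycogen phosphorylase and its kinase came next in role. PYGM, the muscle phosphorylase that cuts glucose units from glycogen and the glycogen gene with most reads, had 2332, 1941 and 3102 CPM in cattle-yak and 3492, 3108 and 3782 CPM in yak. The highest cattle-yak library lay just under the lowest yak library, and the log2 ratio of -0.49 ± 0.19 did not pass (SE, edgeR adjusted p = 0.108). Of the 3 tested subunits of the kinase, 1 passed. PHKB, its regulatory beta subunit, fell, with 75.8, 54.3 and 75.1 CPM in cattle-yak against 142, 124 and 116 CPM in yak (log2 ratio -0.89 ± 0.19, edgeR adjusted p = 0.00687). PHKA1, the regulatory alpha subunit of muscle, had 163, 144 and 197 CPM in cattle-yak and 235, 226 and 264 CPM in yak, without overlap, but its log2 ratio of -0.52 ± 0.17 did not pass (edgeR adjusted p = 0.0654). PHKG1, the catalytic gamma subunit of muscle, had a fold change of the other sign. It had 43.4, 31.9 and 69.7 CPM in cattle-yak and 22.3, 31.9 and 32.8 CPM in yak (log2 ratio 0.74 ± 0.27, edgeR adjusted p = 0.106), and passed as higher with library size alone (edgeR adjusted p = 0.0309) and without cattle-yak 2 (edgeR adjusted p = 0.0244). PHKA1 passed as lower without cattle-yak 3 or with no low count filter (edgeR adjusted p down to 0.0458), and so did PYGM (down to 0.0236). CALM3, a gene for calmodulin, which is also the calcium-sensing subunit of the kinase, was on the list of other pathway genes. It fell to 306 ± 96.6 CPM in cattle-yak, against 579 ± 31.6 CPM in yak (SD, n = 3 each, log2 ratio -0.92 ± 0.21, edgeR adjusted p = 0.0137), with its name on 63.6% of its reads.

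Glycogen is also broken down in lysosomes. GAA, the acid alpha-glucosidase of lysosomes, had 12.1, 6.54 and 7.98 CPM in cattle-yak and 4.45, 6.12 and 5.47 CPM in yak, from 106 reads in all, and its log2 ratio of 0.72 ± 0.37 did not pass (SE, edgeR adjusted p = 0.235). The GAA transcript TALONT000145521 had 12, 11 and 10 reads in cattle-yak and 2, 2 and 3 reads in yak. It rose with a log2 ratio of 1.99 ± 0.55 (SE, edgeR adjusted p = 0.0242 over all transcripts), a call that was lost without any of 5 of the 6 libraries (edgeR adjusted p up to 0.0836).

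Of the 5 tested genes that lead into glycogen, 1 fell and 4 did not pass. GYG1, glycogenin, the primer on which a glycogen particle starts, had 143, 77.0 and 102 CPM in cattle-yak and 144, 232 and 179 CPM in yak. The call rests on a narrow margin, with a log2 ratio of -0.79 ± 0.23 (SE, edgeR adjusted p = 0.0463), and was lost in 11 of 18 alternatives, among them limma-voom (0.0556), library size alone (0.109) and the fits without cattle-yak 2, cattle-yak 3, yak 2 or yak 3 (adjusted p up to 0.179). UGP2, which makes the activated glucose that glycogen synthase uses, had 327, 291 and 324 CPM in cattle-yak and 205, 284 and 238 CPM in yak. Every cattle-yak library was above every yak library, but the log2 ratio of 0.37 ± 0.17 did not pass (edgeR adjusted p = 0.181), except with library size alone, where it was 0.57 (edgeR adjusted p = 0.0309). GYS1, the muscle glycogen synthase, overlapped between the groups, at 81.7, 72.7 and 68.9 CPM in cattle-yak and 65.0, 67.3 and 81.1 CPM in yak (log2 ratio 0.07 ± 0.18, edgeR adjusted p = 0.860). GBE1, the branching enzyme, had a log2 ratio of 0.05 ± 0.27 (edgeR adjusted p = 0.933). PGM1, phosphoglucomutase, which connects glucose phosphates of glycogen and of glycolysis, had 1160, 995 and 1610 CPM in cattle-yak and 1690, 1537 and 1870 CPM in yak (log2 ratio -0.44 ± 0.19, edgeR adjusted p = 0.159). It passed as lower without cattle-yak 3 (edgeR adjusted p = 0.0331). By overlap alone, 2 of the 14 glycogen genes had every cattle-yak value above every yak value (GAA and UGP2) and 7 had every value below, against 15.2% and 14.6% of all genes tested (29.9% in either direction). Of the 18 glycolysis genes, 2 lay wholly above (HK2 and PFKFB4) and 4 wholly below (PGK1, ENO1, LDHA and PFKFB1).

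Of the 2 tested genes of glucose entry, HK2 rose and SLC2A4 did not pass. HK2, the hexokinase of insulin-responsive muscle, had 14.9, 21.9 and 12.0 CPM in cattle-yak and 3.56, 3.50 and 8.66 CPM in yak. All 3 cattle-yak libraries were above all yak libraries, from 38, 57 and 33 reads against 8, 8 and 19 reads. It rose with a log2 ratio of 1.63 ± 0.39 (SE, edgeR adjusted p = 0.0154). The call was lost without cattle-yak 2 (edgeR adjusted p = 0.0570), yak 1 (0.0688) or yak 2 (0.0726). Of the reads of HK1 and HK2 together, HK2 took 97.4%, 93.4% and 94.3% in cattle-yak and 80%, 53.3% and 86.4% in yak. The difference of 21.8 percentage points rests on 19 HK1 reads in all and had a two-sided exact permutation p of 0.1, the smallest that 3 against 3 allows (0.4 after adjustment over 4 isozyme pairs). SLC2A4, the insulin-responsive glucose transporter GLUT4, overlapped between the groups, with 129, 73.1 and 107 CPM in cattle-yak and 102, 132 and 134 CPM in yak (log2 ratio -0.25 ± 0.21, edgeR adjusted p = 0.498).

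The other member that rose was PFKFB4. The PFKFB enzymes make and remove the fructose bisphosphate that activates phosphofructokinase. PFKFB4 had 62.1, 46.6 and 77.3 CPM in cattle-yak and 20.0, 24.1 and 21.4 CPM in yak, with the lowest cattle-yak library well above the highest yak library. Its mean was 62.0 ± 15.4 CPM in cattle-yak and 21.8 ± 2.04 CPM in yak (SD, n = 3 each), a log2 ratio of 1.504 ± 0.23 (SE, edgeR adjusted p = 0.000664). The call held in all 17 alternatives, with log2 ratios from 1.32 to 1.69. The transcript TALONT000499910 carried 76, 40 and 120 of its reads in cattle-yak and 19, 15 and 15 in yak (log2 ratio 2.04 ± 0.36, edgeR adjusted p = 0.00121). PFKFB1 had 6.25, 6.16 and 8.71 CPM in cattle-yak and 8.90, 9.18 and 9.11 CPM in yak, without overlap and without passing (log2 ratio -0.36 ± 0.32, edgeR adjusted p = 0.529). PFKFB3 overlapped between the groups, with 206, 61.2 and 74.7 CPM in cattle-yak and 97.1, 161 and 67.9 CPM in yak (log2 ratio 0.07 ± 0.59, edgeR adjusted p = 0.960). The name PFKFB3 was carried by 12.2% of its reads, the rest lying in transcripts without a symbol. FBP2, the muscle fructose bisphosphatase, which runs the phosphofructokinase step backwards, had 575, 525 and 642 CPM in cattle-yak and 632, 702 and 733 CPM in yak (log2 ratio -0.25 ± 0.16, edgeR adjusted p = 0.372).

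The 3 glycolysis genes with most reads, GAPDH, ALDOA and ENO3, did not pass and had log2 ratios below 0. GAPDH, the dehydrogenase at the centre of the pathway, had 31070, 31850 and 43800 CPM in cattle-yak and 39150, 41100 and 44900 CPM in yak, with a log2 ratio of -0.23 ± 0.17 (SE, edgeR adjusted p = 0.444). ALDOA, the muscle aldolase that splits the hexose bisphosphate, had 21380, 21440 and 26780 CPM in cattle-yak and 25850, 26820 and 31070 CPM in yak (-0.27 ± 0.17, edgeR adjusted p = 0.345). ENO3, the muscle enolase, had 8510, 7988 and 12590 CPM in cattle-yak and 11250, 12680 and 14920 CPM in yak (-0.42 ± 0.19, edgeR adjusted p = 0.192). In all 3 genes cattle-yak 3 overlapped the yak libraries while cattle-yak 1 and 2 lay below them. TPI1, GPI and PKM, which act as triose isomerase, hexose isomerase and pyruvate kinase, had log2 ratios of -0.49, -0.67 and -0.18, and PFKM, the muscle phosphofructokinase, had 0.05, none of which passed (edgeR adjusted p from 0.172 to 0.911). With no low count filter, GPI (edgeR adjusted p = 0.00311) and TPI1 (0.0308) passed as lower. PKM stood at 0.0046 with library size alone. The 20 glycolysis members found took 7.92%, 7.87% and 10.1% of all counted reads in cattle-yak and 8.88%, 8.95% and 10.04% in yak. GAPDH with reference transcripts only, 0.6% of its reads, had a log2 ratio of 0.17 (edgeR adjusted p = 0.558).

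The enzymes that fell were PGK1 and ENO1. PGK1, phosphoglycerate kinase, the first step of the chain that yields ATP, had 1124, 1049 and 1135 CPM in cattle-yak and 1544, 1678 and 2290 CPM in yak. The cattle-yak libraries lay close together and under all yak libraries. Its log2 ratio was -0.74 ± 0.18 (SE, edgeR adjusted p = 0.0155), and the call was lost without yak 3, the highest library (edgeR adjusted p = 0.111). The PGK1 transcripts TALONT001331163 and TALONT001331162 fell by 0.83 and 0.94 on the log2 scale (edgeR adjusted p = 0.00488 and 0.00428). ENO1, the enolase of most tissues and of growing muscle, had 115, 157 and 148 CPM in cattle-yak and 302, 290 and 282 CPM in yak, again without overlap. Its mean was 140 ± 22.2 CPM in cattle-yak and 291 ± 10.2 CPM in yak (SD, n = 3 each), a log2 ratio of -1.05 ± 0.17 (SE, edgeR adjusted p = 0.00119), which passed in all 18 alternatives. Its reference transcript ENSBGRT00000022138 fell by 1.32 ± 0.19 on the log2 scale (edgeR adjusted p = 0.000171), and the assembled TALONT000197413 by 0.98 ± 0.24 (edgeR adjusted p = 0.0122). ENO3 took 98.7%, 98.1% and 98.8% of the enolase reads in cattle-yak and 97.4%, 97.8% and 98.1% in yak, which differed by 0.757 percentage points (exact permutation test, two-sided p = 0.2, adjusted 0.4). PGAM1, the other mutase form, had 26.2, 20.8 and 12.7 CPM in cattle-yak and 20.9, 14.0 and 15.5 CPM in yak (log2 ratio 0.24 ± 0.30, edgeR adjusted p = 0.660). The symbol PGAM1 was on 8.6% of its reads. Another 91.4% lay in the reference transcript ENSBGRT00000030189, which was described as phosphoglycerate mutase 1.

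Lactate dehydrogenase closes the pathway. LDHA, the form that favours lactate, was an assembled gene spread over 131 transcripts, with 55.1, 59.7 and 74.7 CPM in cattle-yak and 83.7, 90.1 and 94.3 CPM in yak. The groups did not overlap, yet the log2 ratio of -0.50 ± 0.18 did not pass (SE, edgeR adjusted p = 0.0980). This gene held 1103 reads in all, and whether it covers all LDHA reads was not tested. Its leading transcript TALONT001329987 had the other sign, with a mean of 38.3% of the gene's reads in cattle-yak and 15.25% in yak. The log2 ratio of that transcript was 0.85 ± 0.28 and did not pass (edgeR adjusted p = 0.0573). LDHB, the form of heart and oxidative fibres, had 120 of its 189 reads in yak 3, with 1.95, 2.31 and 10.9 CPM in cattle-yak and 4.45, 7.87 and 54.7 CPM in yak (log2 ratio -2.11 ± 1.26, edgeR adjusted p = 0.384). Without yak 3 the difference in the LDHA share of the pair was -0.08 percentage points instead of 9.97 (two-sided exact permutation p = 0.5 with all libraries), and it was 0.821 percentage points when only reads carrying each gene's own symbol were counted. The name LDHB rests on 8.5% of its reads. SLC16A3, the transporter MCT4 that carries lactate out of glycolytic fibres, was among the other pathway genes. It had 12.1, 23.1 and 29.0 CPM in cattle-yak and 40.1, 57.7 and 48.7 CPM in yak and fell with a log2 ratio of -1.18 ± 0.28 (edgeR adjusted p = 0.0141). Of the 24 other pathway genes tested, PPP1R3B, SLC16A3 and CALM3 fell, none rose and 21 did not pass, against 5.08% lower and 4.92% higher among all genes. The median log2 ratio of the 24 genes was -0.16. The calls of PPP1R3B, SLC16A3 and CALM3 were not checked in the alternatives.

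Within cattle-yak, library 3 often had the highest level of these genes. This was more frequent among the members than over all genes tested. Some muscle markers, such as ACTA1, CKM, MYLPF, TNNI2 and MYL2, were also highest in library 3. Others, such as TTN, NEB, DES and MB, were lowest there. Of the 18 tested glycolysis genes, 13 were highest in cattle-yak 3 among the cattle-yak libraries, and of the 14 glycogen genes 8, together 65.6%, against 31.2% of all genes tested. Without cattle-yak 3, 7 glycolysis genes were called in place of 4, 2 higher and 5 lower, the added ones being ENO3 (log2 ratio -0.64), TPI1 (-0.75) and GPI (-1.12), and PFKM moved to -0.21 without passing. Glycogen then had 7 lower and none higher, and all 10397 genes had 430 higher and 402 lower. STBD1, PPP1R3A and PPP1R3C were likewise highest in cattle-yak 3 within their group and still lay below every yak library there.

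Markers of fibre type and of other cells also differed between the groups. The summed level of 8 fast fibre markers was 80790 to 107000 CPM in cattle-yak and 107800 to 120900 CPM in yak, with 2 of 7 tested genes lower and none higher. Of 8 slow fibre markers 1 was higher and none lower, with sums of 23570 to 26370 CPM in cattle-yak and 20350 to 28590 CPM in yak. Macrophage markers summed to 39.9 to 97.0 CPM in cattle-yak and 17.9 to 38.3 CPM in yak, with 2 of 5 higher, and Schwann cell markers to 214 to 308 CPM in cattle-yak and 105 to 138 CPM in yak, with 1 of 3 higher. Fibroblast markers overlapped, at 191 to 346 CPM in cattle-yak and 320 to 426 CPM in yak, with 2 of 4 lower, and so did endothelial markers, at 30.9 to 61.6 CPM in cattle-yak and 25.4 to 33.8 CPM in yak, with 1 of 4 higher. Adipocyte markers (1 tested) and smooth muscle markers (4 tested) had none called, and both tested erythroid genes were lower, at sums of 0.36 to 2.35 CPM in cattle-yak and 2.73 to 25.4 CPM in yak. The part of these markers in the results above was not tested.

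Transcript usage, the share of a gene's reads in each of its transcripts, was tested for the members with at least 2 transcripts of 5% or more. It changed in 5 of 22 members (PYGM, PGM1, FBP2, UGP2 and PHKB, edgeR adjusted p under 0.05), or 22.7%, against 5.38% of the 2863 genes tested. Depth was not matched in this comparison, and the called members held from 1398 (PHKB) to 42813 (PYGM) pooled reads. The share describes the list and is not a test of the pathway. In PYGM the leading transcript TALONT000874929 held 46.1%, 38.0% and 46.0% of the gene's reads in cattle-yak and 60.7%, 58.1% and 60.5% in yak, and TALONT000902065 held 10.3% ± 1.59 in cattle-yak and 5.54% ± 0.02 in yak (SD, n = 3 each, edgeR adjusted p = 0.00612 for usage). So a gene whose total did not pass had a leading transcript that fell, by 0.91 ± 0.20 on the log2 scale (edgeR adjusted p = 0.00788). In PGM1, TALONT001147078 held 9.43%, 13.0% and 8.18% in cattle-yak and 3.21%, 2.68% and 3.07% in yak, while TALONT001147085 held 25.9% ± 1.22 in cattle-yak and 30.7% ± 0.66 in yak (edgeR adjusted p = 0.000231 for usage). The first of these rose by 1.31 ± 0.21 on the log2 scale (edgeR adjusted p = 0.000515) and the other fell by 0.65 ± 0.19 (edgeR adjusted p = 0.0345), a call that was lost without any of 5 of the 6 libraries (up to 0.139). With a minimum share of 10%, which leaves out the rising transcript, PGM1 no longer passed (edgeR adjusted p = 0.952). PYGM, FBP2, UGP2 and PHKB had too few transcripts at that share to be tested, so none of the usage calls was seen under it.

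In FBP2 the leading transcript TALONT000962432 held 69.0% ± 1.88 in cattle-yak and 77.5% ± 0.89 in yak (edgeR adjusted p = 0.0241 for usage). In UGP2, TALONT001201791 held 20.5% ± 1.23 in cattle-yak and 31.6% ± 2.53 in yak. TALONT001203579 held 10.4% ± 0.53 in cattle-yak and 6.82% ± 0.90 in yak (0.0277 for usage). In PHKB, TALONT000441148 held 21.1% ± 4.76 in cattle-yak and 31.5% ± 1.09 in yak (0.0493 for usage), and its reads fell by 1.42 ± 0.28 on the log2 scale (edgeR adjusted p = 0.00280). Transcripts under 5%, outside the usage test, held 46.3% of PYGM reads in cattle-yak and 34.7% in yak, and 58.2% and 45.0% of UGP2 reads. They held 20.95% and 16.5% in FBP2, 35.4% and 33.6% in PGM1, and 55.7% and 54.1% in PHKB. The named transcripts are therefore not the whole of the shift in PYGM, UGP2 and FBP2. In all 5 genes the leading transcript held a smaller share in cattle-yak. Most members tested without a usage call did so too, such as ENO1 (44.4% in cattle-yak, 53.6% in yak) and PPP1R3A (51.2% and 61.2%), but PFKFB4 and PHKA1 did not. So this is not particular to the called genes, and it was not counted over all genes. The usage calls of PYGM and PGM1 held without each of the 6 libraries, those of UGP2 in none of these fits, that of PHKB without cattle-yak 3 only, and that of FBP2 without cattle-yak 1 or cattle-yak 3 only (edgeR adjusted p up to 0.312). With the Simes method, the calls of FBP2 (adjusted p = 0.235), UGP2 (0.200) and PHKB (0.669) were lost, which leaves PYGM and PGM1 of the 5. Isoforms and cattle alleles assembled as separate transcripts cannot be told apart here. Over the members, 885 transcripts were tested, of which 22 were higher (2.49%) and 40 lower (4.52%) in cattle-yak, against 6.52% and 6.27% of all 27036 transcripts. Of the 885, 188 were of GAPDH, 140 of ALDOA, 120 of ENO3 and 107 of PKM. These are genes that did not pass, and they weigh heavily on the member shares. No member transcript was without reads in a whole group, against 0.0111% of all transcripts without a cattle-yak read and 0.374% without a yak read.

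**Figure D4:**
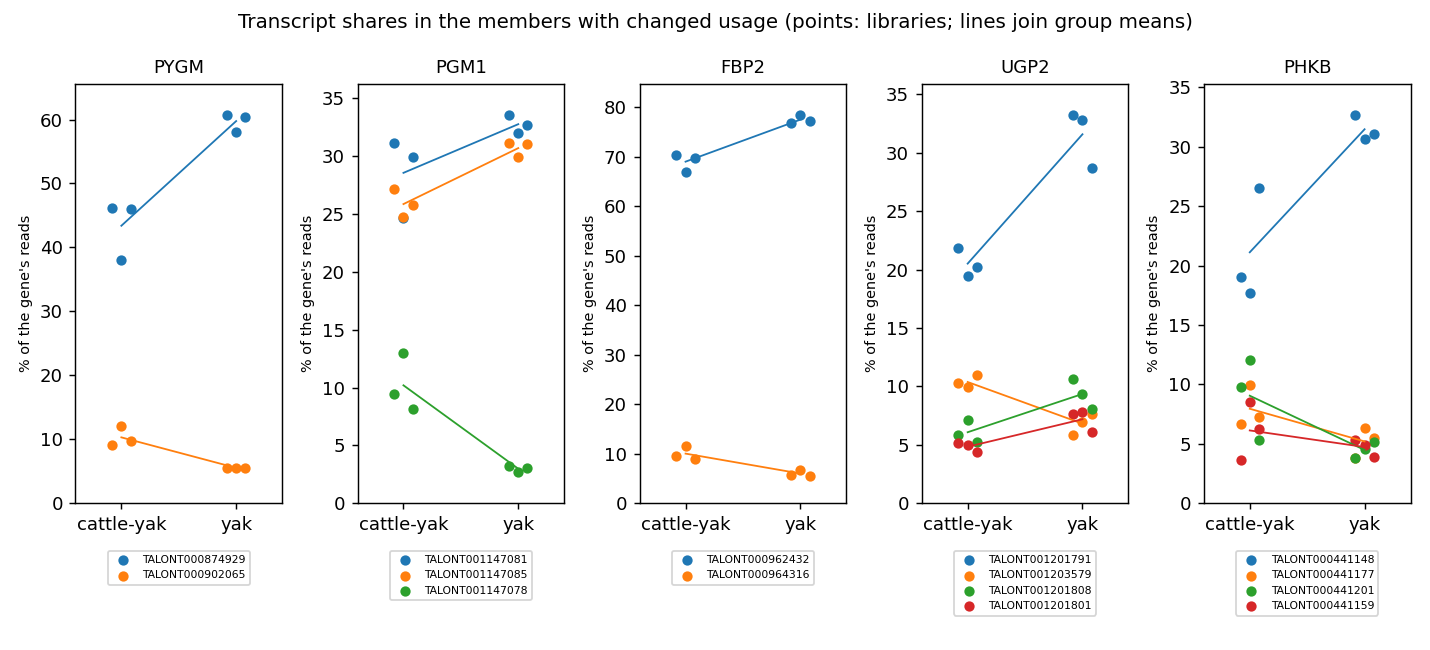
Each panel gives the share of a gene's reads in the transcripts tested for usage, in percent, with a point per library, cattle-yak left and yak right, and lines between group means. The leading transcript of PYGM lies at 38.0% to 46.1% in cattle-yak and 58.1% to 60.7% in yak.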

How the data were processed

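Per the labels' protocols, TRIzol RNA of longissimus dorsi went into nanopore cDNA-PCR libraries (SQK-PCS109), 3 for each group. Tools listed per the submitters' processing notes are fastp, minimap2 and GSNAP; build and counting software were not given in the sources used here. As deposited by the authors, a table holds whole read counts for each transcript and, beside them, CPM scaled to each library's total counts; these deposited CPM equalled counts over that total within 0.005. Lines without values (132) and transcripts without a gene (61, at most 0.0025% of a library) were left out.

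Counts were summed by gene identifier. Genes and transcripts with 30 or more pooled reads entered the quasi-likelihood test of edgeR 4.0.16, run in R 4.3.3 (TMM, robust quasi-likelihood, Benjamini-Hochberg over all tested), and usage with diffSpliceDGE. The SE is the log2 fold change over the square root of F. Isozyme shares were compared with exact permutation tests; the planned pairs with PGAM2 and PYGB were not analysed here. DESeq2 1.42.0, limma-voom (limma 3.58.1), other scalings, filters and namings, a block for the replicate number, and leaving out each library with the tested genes kept, were the alternatives. The scripts were tested on simulated data. Figures were drawn with matplotlib 3.10.9.

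Members and lists were chosen with earlier results of these data known. Named in full were called members, the 3 with most reads in each set, and their called transcripts of 10% or more; the other transcripts in the usage account, and the remaining members given in full, were named after their values were seen. Near-identical copies and overlapping genes may have divided reads between them. FBP1 resolved to the FBP2 gene and was dropped from the other pathway names.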

Additional observations from a re-analysis of the deposited data

How the results depend on the processing

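Over the other scalings, filters, tools, namings and left-out libraries, the member genes gave 551 values, of which 502 kept their direction and side of the threshold, 15 lost the call, 15 gained it and 19, none of them called, turned sign. With reference transcripts only, 188 genes were called, with 1 glycolysis and 3 glycogen genes, and fewer genes were tested (2125). With assembled transcripts only, 3 glycogen genes were called. Usage changed in 84 genes at a minimum share of 10% and in 49 with the Simes method.

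Leaving out each library in turn gave 526 to 1057 changed genes, 3 to 7 glycolysis and 4 to 7 glycogen genes, 2196 to 3187 transcripts and 64 to 132 usage genes. The isozyme share differences ran from 11.9 to 28.4 percentage points for HK2, 0.568 to 0.984 for ENO3, -0.0033 to 0.0012 for ALDOA and -0.078 to 15.8 for LDHA. Log2 ratios that turned sign ran from -0.21 to 0.19 for PFKM, -0.67 to 0.47 for PFKFB3, -0.0051 to 0.49 for PGAM1, -0.22 to 0.26 for GBE1 and -0.26 to 0.13 for EPM2A. The cause was not tested.

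Other sign changes were 0.0046 for PKM and 0.11 for EPM2A with library size alone, and -0.024 for PFKM, -0.013 for GYS1 and -0.036 for GBE1 with no low count filter. Limma-voom gave -0.061 for PFKFB3 and -0.0074 for GBE1, and reference transcripts only gave 0.17 for GAPDH and -0.11 for GYS1.

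Libraries with the same replicate number did not deviate together (Pearson r of -0.041, -0.012 and 0.012 over genes, which are not independent). With 3 libraries a group, this cannot show whether the numbers pair the samples, which is not stated. A replicate block gave 1010 genes, 6 glycolysis and 4 glycogen genes, 3106 transcripts, 112 usage genes and -0.038 for PFKFB3. Under it, edgeR called GPI (adjusted p = 0.0229) and LDHB (0.00357) lower, while GYG1 (0.0823) and the usage of UGP2 (0.0658) and PHKB (0.123) no longer passed.

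HK2, GAA, GBE1, PFKFB1, PGAM1 and LDHB each had 312 or fewer pooled reads, and 3 libraries a group cannot give an exact p under 0.1.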
